A study of Mus musculus with 4 samples.

Results

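The 9 genes described here make, fill and switch on the MHC class I display, and they were taken by symbol from the 31053 features of 4 single-cell libraries of mouse tibial bone marrow. H2-K1 and H2-D1 are the classical heavy chains of this mouse strain and H2-Q6 is a heavy chain of the neighbouring Q region. B2m is the light chain that all of them need. Tap1 is a subunit of the peptide transporter, Tapbp (tapasin) holds the transporter and the empty heavy chain together, Psmb8 and Psmb9 are catalytic subunits of the immunoproteasome, and Nlrc5 is the transactivator that binds class I promoters. All 9 symbols matched 1 feature each, and all were followed through every cell class that could be named from markers.

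Class I molecules carry peptides cut by the proteasome to the cell surface, where CD8+ T cells and NK cells read them. In most nucleated cells the pathway runs at a basal level, and interferons raise its heavy chains, transporter and immunoproteasome together, through IRF factors and NLRC5 among others. Red cell precursors lose the display as they mature, and developing B cells carry it throughout.

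The study asked how the marrow vascular niche responds to irradiation when the growth factor Vegfc is deleted. The non-irradiated control and the irradiated control carried the floxed allele alone (Vegfc flox/flox). The Vegfc-deleted groups also carried the ubiquitous, tamoxifen-inducible Rosa26-CreERT2. All mice were C57Bl/6JCrl, were given tamoxifen in 5 intragastric doses at 7 to 8 weeks of age where the labels say so, and were injected with a VE-cadherin antibody. Irradiation was a total body dose of 4 Gy, given 2 weeks later, and those mice were taken on day 7. Digested marrow was sorted for live cells without lineage markers, CD45 and Ter119, so haematopoietic cells in the libraries are those that passed this gate. Each group was 1 library, from 3 pooled mice without irradiation and 2 with it, so no difference between groups could be tested: every interval below is a 95% interval for counting error only and says nothing of the spread between mice. The labels contradict themselves on whether the controls received tamoxifen and on the number of irradiated mice. Where 4 values follow each other, the first is the non-irradiated control and the second its Vegfc-deleted counterpart, the third is the irradiated control and the last the Vegfc-deleted library after irradiation.

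The libraries held 67370522, 77284922, 54462123 and 64282090 UMIs over 7454, 7737, 5150 and 5134 barcodes, and 5058, 5211, 3837 and 4065 cells were kept. Of 25285 different barcodes, 171 occurred in more than 1 library, most of them (117) in both non-irradiated libraries, and 174 of the 18171 kept cells carried such a barcode. They held 41.9% of the UMIs of early erythroid-like and 28.8% of those of megakaryocyte-like cells in the non-irradiated control, but at most 1.36% of the UMIs in any library of the sinusoidal endothelial-like, LepR stromal-like and early B-like classes. For each class of a library the UMIs of its cells were added up, and a gene's level is its share of them, per 1000000 (CPM). Class names end in -like because they rest on marker genes: in the sinusoidal endothelial-like and LepR stromal-like classes, 12 of 12 markers had at least 10 counts in every library. Vegfc itself, in the LepR stromal-like class, stood at 172, 18.4, 177 and 24 CPM, low in both libraries labelled as deleted. Its 3' tags need not lie in the deleted part.

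Of the 9 genes, 7 lie within 1514 kb of chromosome 17, between positions 33915899 and 35430055 of GRCm38. From the start of that stretch come Tapbp (33915899-33929292, plus strand), H2-K1 (33996017-34000347, minus strand), Psmb9 (34181987-34187764, minus strand), Tap1 (34187553-34197225, plus strand), Psmb8 (34197721-34201454, plus strand), H2-D1 (35262730-35267499, plus strand) and H2-Q6 (35424850-35430055, plus strand). B2m lies on chromosome 2 (122147686-122153083, plus strand) and Nlrc5 on chromosome 8 (94434356-94527272, plus strand). Psmb9 and Tap1 start back to back and the spans given for them overlap. Their promoter windows, placed from RefSeq starts, share 275 bases. Those starts can differ from the spans given: the H2-D1 window printed below lies inside its span. The promoters are shown because the members differ below in which of them move together. RefSeq (GRCm38.p6) gave promoter windows for 8 members, and the stretches with the listed motifs are printed 5′ to 3′ with positions counted from the annotated start. Capitals mark, on either strand, the κB palindrome of class I genes (the first run of capitals in each heavy chain), the interferon response element GAANNGAAA, a longer form of it (GAAA, 2 free bases, GAAA), the CRE-like site TGACG and the CCAAT box.
H2-K1 (chr17:34000334-34000463, minus strand, -116 to +13): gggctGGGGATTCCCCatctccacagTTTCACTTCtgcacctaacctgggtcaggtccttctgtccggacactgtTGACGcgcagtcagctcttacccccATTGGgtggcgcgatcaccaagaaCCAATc
H2-D1 (chr17:35262918-35263047, plus strand, -176 to -47): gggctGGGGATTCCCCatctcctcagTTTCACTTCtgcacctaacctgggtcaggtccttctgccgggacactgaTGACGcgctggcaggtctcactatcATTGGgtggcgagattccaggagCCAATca
H2-Q6 (chr17:35424672-35424801, plus strand, -178 to -49): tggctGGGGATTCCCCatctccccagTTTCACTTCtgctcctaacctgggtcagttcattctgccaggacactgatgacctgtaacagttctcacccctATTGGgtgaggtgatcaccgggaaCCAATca
B2m (chr2:122147538-122147667, plus strand, -149 to -20): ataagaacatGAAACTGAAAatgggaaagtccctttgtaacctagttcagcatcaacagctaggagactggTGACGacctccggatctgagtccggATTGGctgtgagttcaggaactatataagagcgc
The 11-base κB palindrome occurred in 6 of 27025 promoter windows (0.0222%), namely those of H2-K1, H2-D1, H2-Q6, Aipl1, Atg16l2 and Pdzd2. In each of the 3 heavy chains it was followed, 21 bases further, by GAANNGAAA, which 7.56% of all windows held and which was added to the search after the windows had been seen. The printed 130 bases were identical without gaps at 81.5% of positions between H2-K1 and H2-D1, 70.8% between H2-D1 and H2-Q6, and 64.6% between H2-K1 and H2-Q6. TGACG, likewise added later, was present in H2-K1, H2-D1, B2m, Tap1 and Psmb9 (21.0% of all windows) and not in these letters in H2-Q6. CCAAT was found in 7 of the 8 members and in 37.9% of all windows. The longer response element was found in B2m alone (3.49% of all windows) and TTCNNNGAA, the interferon-γ activated site, in Psmb8 alone (8.47%). The Tap1 window, which also holds the Psmb9 start, carried CCAAT and TGACG and none of the other motifs.
Tap1 (chr17:34187306-34187505, plus strand, -250 to -51): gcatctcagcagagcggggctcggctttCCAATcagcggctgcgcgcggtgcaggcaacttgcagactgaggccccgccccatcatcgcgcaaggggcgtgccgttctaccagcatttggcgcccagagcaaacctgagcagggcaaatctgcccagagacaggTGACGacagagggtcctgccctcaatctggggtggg

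**Figure D1:**
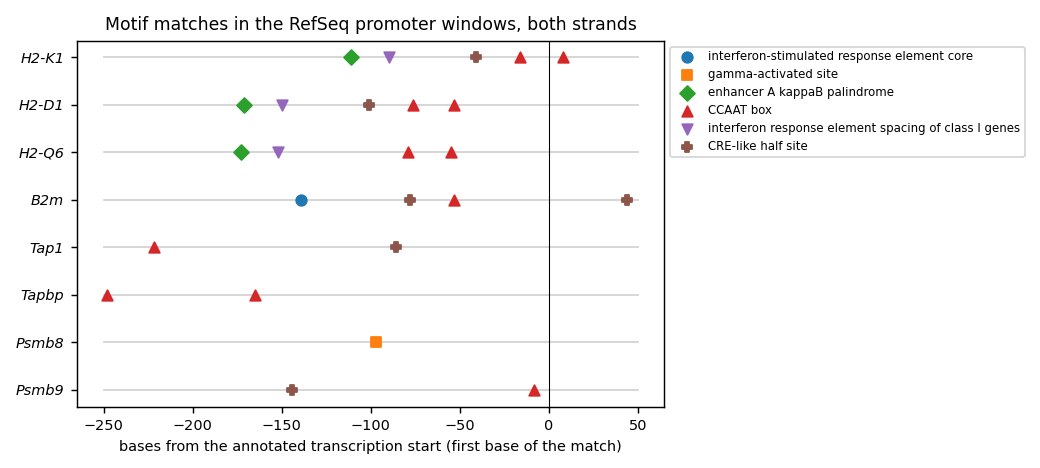
Positions of the searched motifs in the promoter windows of 8 members, in bases from the annotated start, with symbols for each motif. The κB palindrome and the interferon response element GAANNGAAA stand together in the 3 heavy chains. B2m, which holds the longer form of the element, Tap1 and Psmb9 have neither. CCAAT is found in all of these genes and TGACG in all but H2-Q6.

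Heavy chain RNA was spread over all classes but far from evenly. H2-K1 was highest in LepR stromal-like cells, the perivascular cells that make Cxcl12 and Kitl, at 3944, 4556, 3113 and 3156 CPM. Next to them, and above them in the irradiated control, came T or NK-like cells, which stood at 2578 CPM in the non-irradiated Vegfc-deleted, 3317 in the irradiated control and 2834 in the irradiated Vegfc-deleted library. Sinusoidal endothelial-like cells, the lining of the marrow sinusoids, held 1274, 1403, 1656 and 1654 CPM, and non-sinusoidal endothelial-like cells, a cluster that scored about as high for arterial or capillary as for sinusoidal markers, 1657 and 1597 CPM in the irradiated libraries. Early B-like cells were close to sinusoidal cells without irradiation, at 1312 and 1202 CPM, and far below them with it, at 740 and 705 CPM. Late erythroid-like cells were lowest in every library, at 40.8, 36.3, 27.5 and 25.6 CPM, between 96.7-fold and 126-fold under the highest class. Haemoglobin made up 4905, 218097 and 620272 CPM of early, mid and late erythroid-like cells in the non-irradiated control, which lowers all other CPM there. Its part in the order of classes was not tested. In CPM each erythroid step of that library was lower, from 283 in early through 82.4 in mid to 40.8 in late cells. Between these ends stood monocyte or macrophage-like cells (847, 736, 1102 and 1097 CPM), megakaryocyte-like cells (313, 299, 490 and 642 CPM), mature neutrophil-like cells (420, 320, 362 and 249 CPM) and, in the irradiated libraries, osteolineage-like cells (517 and 542 CPM). Neighbours in this order had intervals of their ratio that included no difference in 3 of 11, 5 of 14, 4 of 12 and 4 of 13 pairs.

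H2-D1 was highest in LepR stromal-like cells in all 4 libraries, at 4844, 5428, 3089 and 3399 CPM, and lowest in late erythroid-like cells, at 162, 159, 94.8 and 80.9 CPM. Its range was narrower than that of H2-K1, between 29.9-fold and 42.0-fold. In mature neutrophil-like cells H2-D1 held 1364, 1421, 1150 and 1075 CPM. H2-Q6 was highest in T or NK-like cells where they were present (235, 204 and 164 CPM) and in early B-like cells of the non-irradiated control (131 CPM), and it was at or under 1 CPM in mid and late erythroid-like cells. Part of its 3' end is shared: of 451 stretches of 50 bases in its last 500 bases, 162 (35.9%) also occur in other genes, 61 of them in H2-Q4, so its reads may be split with those. For H2-D1 the share was 9.53%, for H2-K1 0.443%, and for the other 6 members 0.

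B2m had the flattest profile of the heavy and light chains. LepR stromal-like cells were highest in every library, at 2599, 3312, 3400 and 3455 CPM, and late erythroid-like cells lowest, at 246, 387, 253 and 285 CPM, a ratio between 8.55 and 13.4. Erythroid-like cells that held little H2-K1 therefore still held B2m: mid erythroid-like cells stood at 515 and 813 CPM of B2m against 82.4 and 98.3 CPM of H2-K1 in the non-irradiated libraries. Sinusoidal endothelial-like cells held 2192, 2602, 2867 and 2672 CPM.

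Both immunoproteasome subunits were highest in leukocyte classes in every library. Psmb8 was highest in T or NK-like cells where they were present (497, 556 and 674 CPM), with monocyte or macrophage-like cells at 438, 446, 270 and 402 CPM and myeloid precursor-like cells at 473, 388 and 266 CPM in the libraries that had at least 20 of them. It was close to absent from late erythroid-like cells (2.12, 3.38, 1.60 and 2.76 CPM), and low in osteolineage-like cells (23 and 48.9 CPM). Early B-like cells held 291, 314, 262 and 350 CPM and LepR stromal-like cells 177, 200.4, 158 and 242 CPM. Psmb9 gave a similar order, from 293 CPM in T or NK-like cells to 0.601 CPM in late erythroid-like cells of the irradiated control. Tap1 was highest in monocyte or macrophage-like cells of the non-irradiated control (119 CPM), in the 40 dendritic-like cells of the non-irradiated Vegfc-deleted library (126 CPM), and in T or NK-like cells of both irradiated libraries (218 and 157 CPM). Tapbp was highest in LepR stromal-like cells of the non-irradiated control (215 CPM) and in sinusoidal endothelial-like cells of the irradiated Vegfc-deleted library (224 CPM), and in dendritic-like (307 CPM) and T or NK-like cells (304 CPM) of the other two. It varied least along the erythroid series: late erythroid-like cells, at 82.4, 66.2, 95.2 and 76.5 CPM, were above early erythroid-like cells, at 59.0, 66.3, 66.5 and 39.4 CPM, in 3 of 4 libraries and level with them in the other. Nlrc5 was low everywhere, at most 97.8 CPM in T or NK-like cells, and LepR stromal-like cells (25.6, 37.5, 72.7 and 59.4 CPM) stood above sinusoidal endothelial-like cells (13.3, 15.8, 21.0 and 19.4 CPM) in all 4 libraries.

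**Figure D2:**
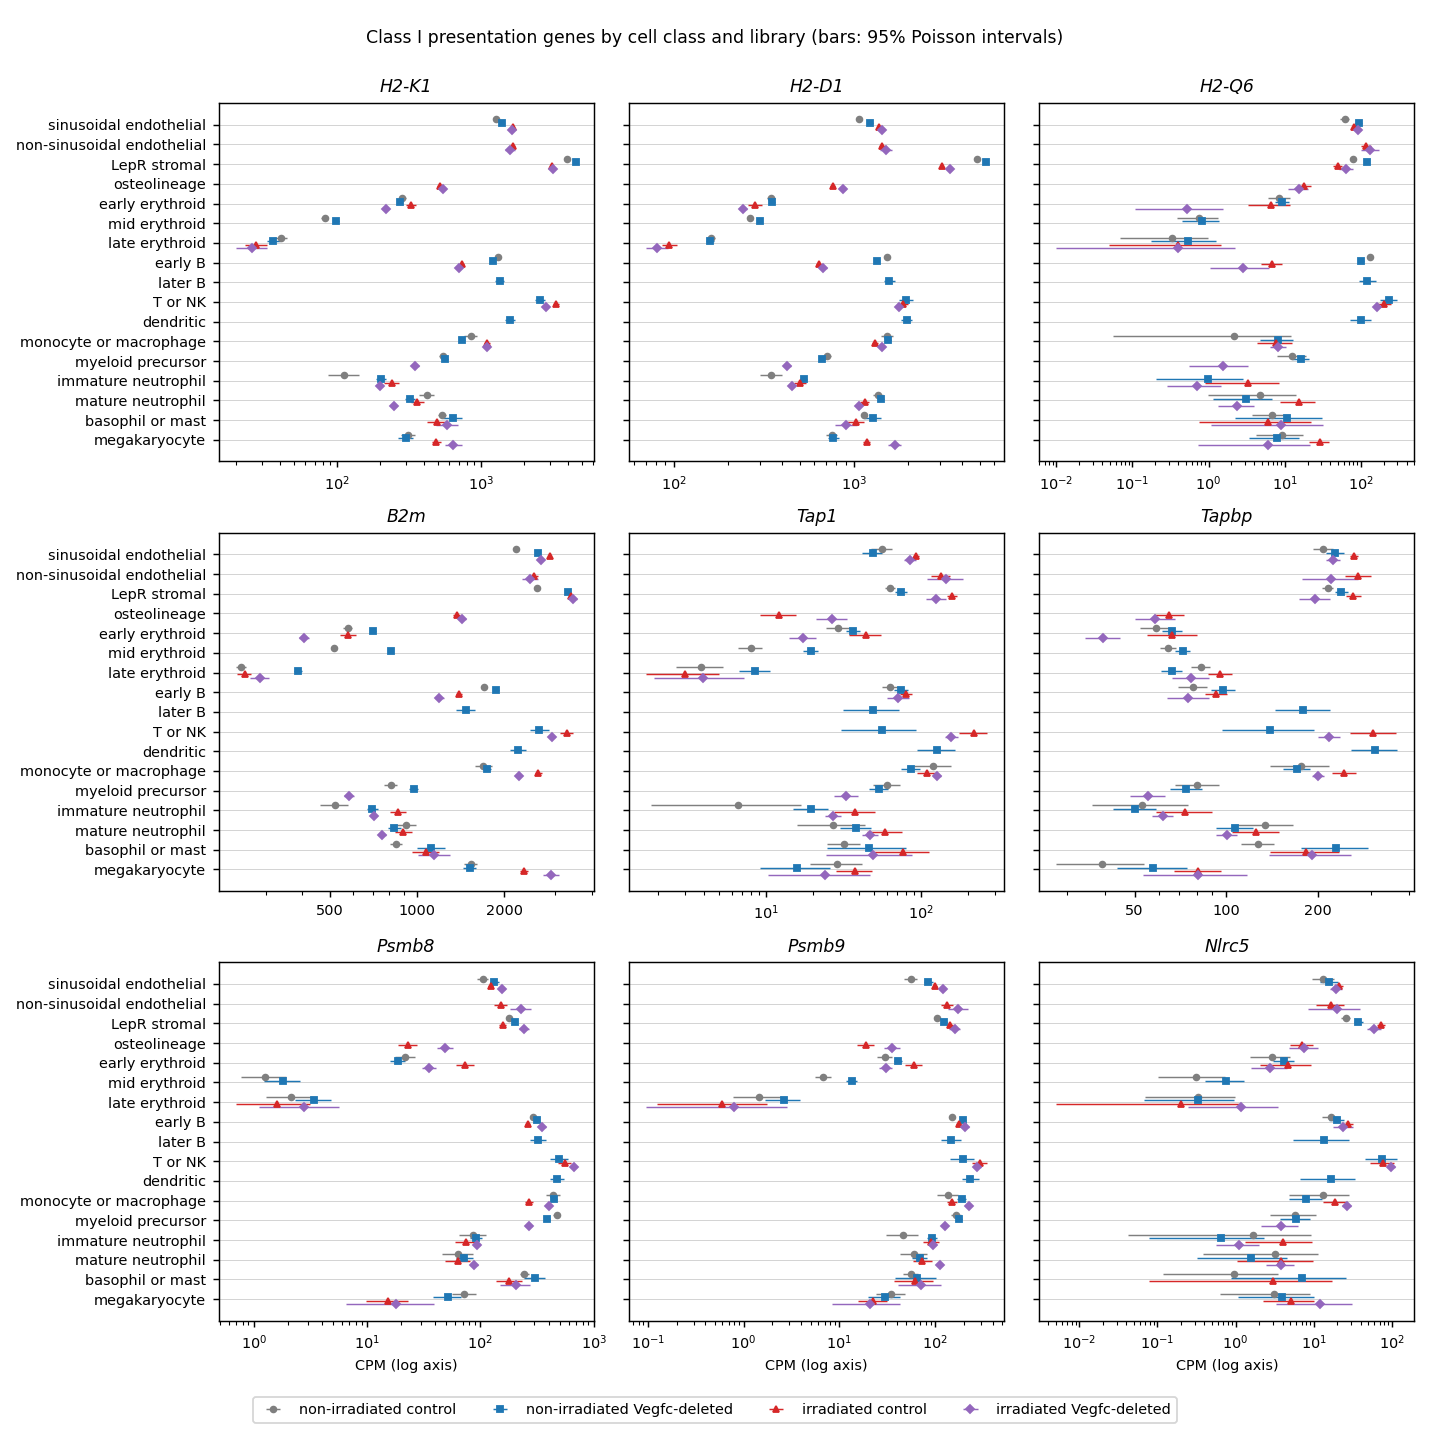
CPM on a log axis (horizontal) of each member in each named class (vertical), with a point per library and bars for 95% Poisson intervals. LepR stromal-like cells lead for H2-D1 and B2m in all 4 libraries, erythroid-like cells are lowest for H2-K1, H2-D1 and the immunoproteasome, and Tapbp is flatter along the erythroid series.

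Over the 54 sums of 17 classes and 4 libraries, the members were related to different degrees, given here as a description because sums of a library share its depth and its free RNA. Pearson's r of log2(CPM + 1) was highest between Psmb8 and Psmb9 (0.93), between H2-K1 and H2-D1 (0.92) and between H2-K1 and B2m (0.92). It was lowest between Tapbp and Psmb9 (0.47) and between Tapbp and Psmb8 (0.52). The non-member genes whose pattern was most like the mean of the members were Lrrk1 (0.93), Shisa5, Mycbp2, Ppm1k and Ube2d1 (0.91 each), and Fam120b, Vgll4, Stx6, Thap3 and Dcaf5 (0.90 each).

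Cells of a class differed among themselves. After every cell was thinned to 1500 UMIs, the sum of H2-K1, H2-D1 and B2m had medians of 16, 19, 13 and 14 UMIs per cell in LepR stromal-like cells, 6, 8, 8 and 8 in sinusoidal endothelial-like cells and 7, 7, 4 and 4 in early B-like cells. In late erythroid-like cells the medians were 0, 1, 0 and 0, and 53.5%, 46.4%, 59.8% and 63% of cells had none of these UMIs. Megakaryocyte-like cells were uneven in the irradiated control, where the median was 4, the 90th percentile 22, and 18.4% of cells had none.

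**Figure D3:**
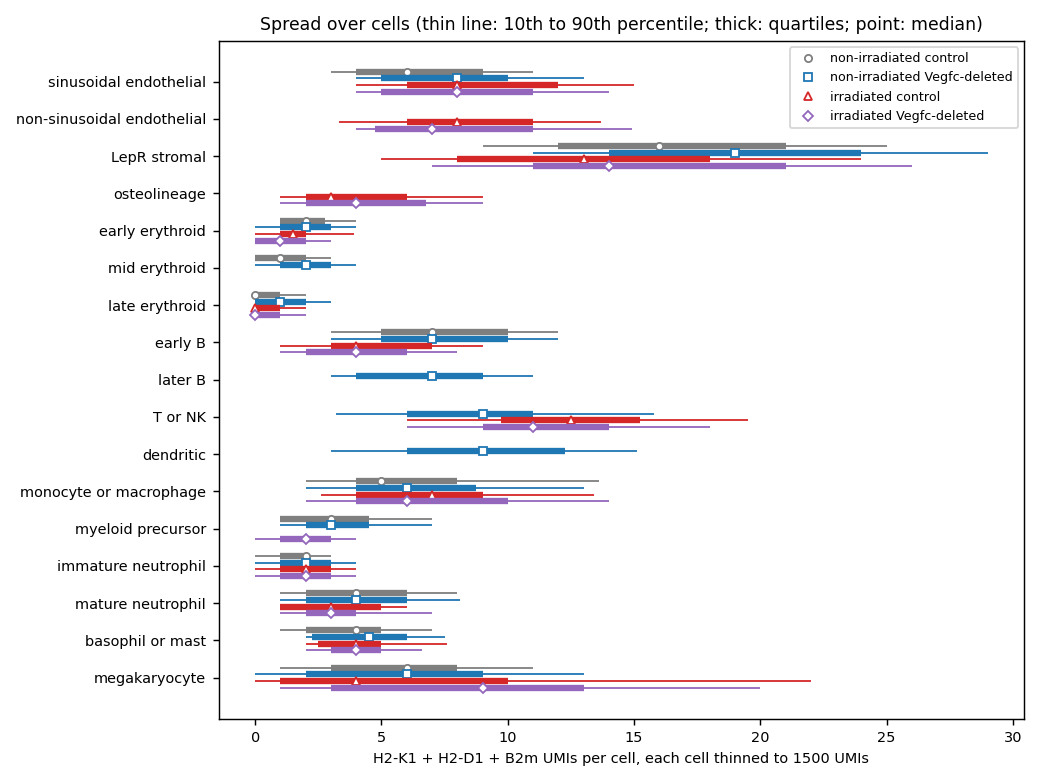
UMIs of H2-K1, H2-D1 and B2m summed per cell after thinning to 1500 UMIs (horizontal) for each class (vertical) and library, with points at the medians, thick lines over the quartiles and thin lines over the 10th to 90th percentile. LepR stromal-like cells have the highest medians, 13 to 19, and late erythroid-like cells 0 or 1.

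In sinusoidal endothelial-like cells the transporter subunit, the immunoproteasome subunit Psmb9 and Nlrc5 were higher after irradiation in controls, and the heavy and light chains moved less. Tap1 stood at 55.6, 48.7, 92.8 and 84.5 CPM, so both irradiated libraries lay above both non-irradiated ones. It was 1.67-fold higher in controls (1.42 to 1.97) and 1.74-fold higher in Vegfc-deleted mice (1.46 to 2.08). Psmb9 stood at 55.6, 85.2, 100.1 and 120.5 CPM, 1.80-fold higher in controls (1.54 to 2.12) and within 1.5-fold in Vegfc-deleted mice (1.42-fold). Nlrc5 was 1.59-fold higher in controls (1.14 to 2.25). In cluster 0 alone, which held nearly all irradiated but only 10 non-irradiated control cells of the class, both turned: Psmb9 stood at 118 CPM, from 11 UMIs, and 100.3 CPM (log2 ratio -0.30), and Nlrc5 at 21.5 CPM, from 2 UMIs, and 21.0 CPM (-0.35). In cluster 10 alone, with 20 irradiated control cells, both kept their direction, with Psmb9 at 53.7 and 79.1 CPM and Nlrc5 at 28.8 CPM in the irradiated library, from 4 UMIs. H2-K1, H2-D1 and B2m were 1.30-fold, 1.29-fold and 1.31-fold higher in controls, and B2m was 1.03-fold in Vegfc-deleted mice.

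Counting as called a ratio of at least 1.5-fold with at least 30 counts in either library, 3 of 9 members were higher and 0 lower in control sinusoidal cells, where 17.2% of all genes were called higher and 7.87% lower. The members' median log2 ratio was 0.39 and that of all genes 0.17. In Vegfc-deleted mice 1 of 9 was higher, against 14.3% of all genes (7.67% lower), with medians of 0.23 and 0.15. The cells compared came from different clusters: cluster 10 held 296, 322, 20 and 4 of the class and cluster 0 held 10, 36, 1345 and 653. Haemoglobin UMIs (4 of 4 genes above 0) were lower in the irradiated libraries, at 7186, 6816, 564 and 232 CPM, leukocyte markers (5 or 6 of 6) stood at 82.5, 87.4, 127 and 156 CPM, and plasma cell markers (6 of 8, with Iglv1 and Tnfrsf17 at 0) at 1043, 1133, 1993 and 2124 CPM. Their part in these ratios was not tested.

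In LepR stromal-like cells the members split over the class as a whole, and differently in its 2 clusters. Tap1 stood at 63.3, 74.2, 158 and 125.5 CPM and Nlrc5 at 25.6, 37.5, 72.7 and 59.4 CPM, higher in both irradiated libraries than in either non-irradiated one. Tap1 was 2.49-fold higher in controls (2.24 to 2.77) and 1.69-fold in Vegfc-deleted mice (1.42 to 2.01). Nlrc5 was 2.83-fold higher in controls (2.41 to 3.34) and 1.59-fold in Vegfc-deleted mice (1.23 to 2.03). Over the whole class 2 heavy chains went the other way, with H2-D1 1.57-fold lower in controls (1.54 to 1.60) and 1.60-fold lower in Vegfc-deleted mice (1.55 to 1.65). H2-Q6, at 79.2, 119.9, 49.6 and 64.1 CPM, was 1.60-fold lower in controls (1.38 to 1.86) and 1.87-fold lower in Vegfc-deleted mice (1.51 to 2.34). This did not hold within cluster 2 of controls, where H2-Q6 was higher, at 79.4 and 129.8 CPM (log2 ratio 0.72, from 846 and 46 UMIs), and H2-D1 was under the fold used. Within cluster 11 of controls H2-Q6 was level, at 43.9 CPM, from 3 UMIs, and 42.8 CPM. Over the class H2-K1 had log2 ratios of -0.34 and -0.53 and B2m of 0.39 and 0.06.

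Both genotypes thus had 2 of 9 members called higher and 2 lower, where 18% of all genes were higher and 10.5% lower in controls. In Vegfc-deleted mice these shares were 17.3% and 12.8%. The members' median log2 ratio was 0.28 in controls (0.16 over all genes) and 0.06 in Vegfc-deleted mice (0.11 over all genes). The irradiation ratio of Tap1 was smaller in Vegfc-deleted than in control mice by a log2 difference of -0.56 (-0.84 to -0.27) and that of Nlrc5 by -0.83 (-1.25 to -0.41), intervals that hold counting error only. Beside these stand markers of other cells, which were highest in the irradiated Vegfc-deleted library of 180 cells: plasma cell markers (5 to 7 of 8 genes above 0) at 434, 417, 546 and 6103 CPM, granule genes (10 or 11 of 11) at 135, 374, 163 and 2573 CPM, and leukocyte markers (6 of 6) at 14.5, 21.3, 21.0 and 122 CPM. Their part in the difference was not tested. The clusters also differed, since cluster 2 held 1056, 621, 33 and 15 cells of this class and cluster 11 held 18, 17, 414 and 165. Within cluster 2 alone, which was chosen for comparison after the data had been seen, H2-D1 stood at 4841, 5430, 3853 and 3462 CPM, H2-K1 at 3943, 4554, 3892 and 3492 CPM, H2-Q6 at 79.4, 119.5, 129.8 and 83.1 CPM and Tap1 at 63.0, 74.2, 183.5 and 83.1 CPM. There 6 of 9 members were called higher and 0 lower in controls, with 33 irradiated cells. The share of all genes called in this cluster alone is not given. Within cluster 11, with 18 and 17 non-irradiated cells, H2-D1 stood at 5401, 5045, 3024 and 3392 CPM. H2-Q6 stood there at 43.9, 181.8, 42.8 and 62.3 CPM, from 3 and 8 UMIs without irradiation.

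**Figure D4:**
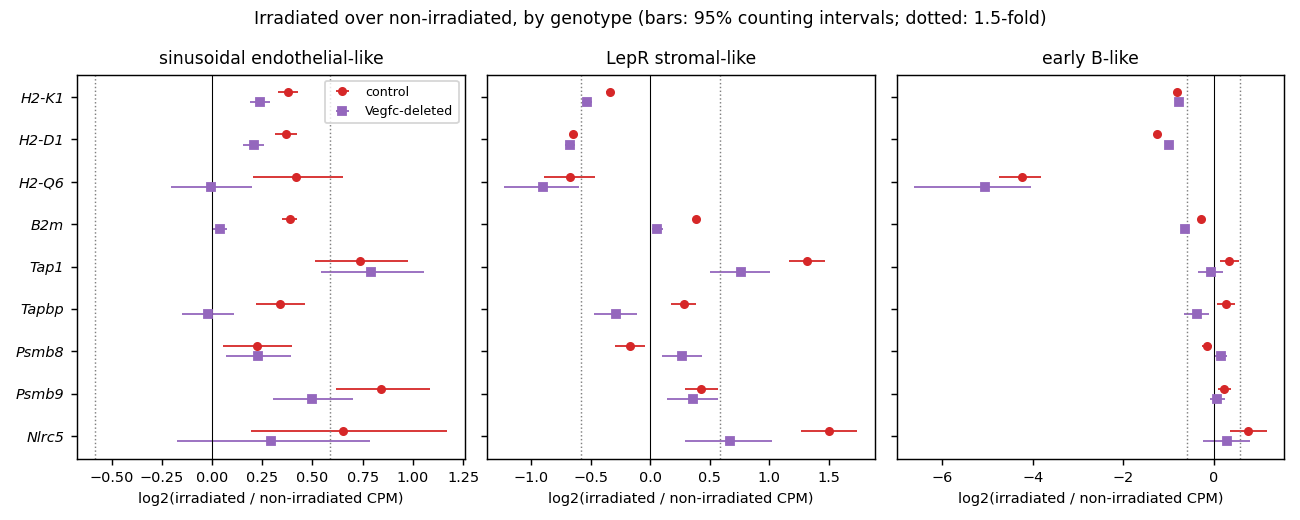
log2 ratio of irradiated over non-irradiated CPM (horizontal) for each member (vertical) in 3 classes, with a point per genotype, bars for 95% counting intervals and dotted lines at 1.5-fold. Tap1 lies beyond the upper line in both genotypes in sinusoidal endothelial-like and LepR stromal-like cells, and H2-K1, H2-D1 and H2-Q6 beyond the lower line in early B-like cells.

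Early B-like cells, the Igll1 and Vpreb1 expressing precursors of B cells, held less of all 3 heavy chains after irradiation. H2-Q6 had 571, 476, 43 and 6 UMIs, or 131, 102, 6.82 and 2.83 CPM. Both irradiated libraries were far below both others, 19.2-fold in controls (14.1 to 26.8) and 36.0-fold in Vegfc-deleted mice (16.4 to 98.6). H2-D1 stood at 1538, 1345, 638 and 674 CPM, 2.41-fold lower in controls (2.32 to 2.51) and 1.99-fold lower in Vegfc-deleted mice (1.88 to 2.11). H2-K1 stood at 1312, 1202, 740 and 705 CPM and was 1.77-fold lower in controls (1.71 to 1.84), with a log2 ratio of -0.77 in Vegfc-deleted mice. B2m, at 1694, 1868, 1393 and 1192 CPM, was called lower in Vegfc-deleted mice alone, by 1.57-fold (1.5 to 1.64). Psmb8, at 291, 314, 262 and 350 CPM, and Psmb9, at 150.2, 195, 176 and 206 CPM, were not called in either genotype, and neither were Tap1 and Tapbp. Nlrc5 was 1.68-fold higher in controls (1.27 to 2.25) and within 1.5-fold in Vegfc-deleted mice (log2 ratio 0.30). Its part in the heavy chain levels was not tested.

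Thus 1 member was higher and 3 lower of 9 in control early B-like cells, where 21.4% of all genes were higher and 22% lower, and 0 were higher and 4 lower in Vegfc-deleted mice, against 14.3% and 26.4%. The members' median log2 ratio was -0.15 in controls (0.00 over all genes) and -0.38 in Vegfc-deleted mice (-0.13 over all genes). The share of early B-like cells with an H2-Q6 UMI was 44.4%, 41.0%, 8.86% and 4.65%, although the irradiated cells were deeper, with median UMIs of 4897.5, 5495, 12665 and 12809. At 1500 UMIs per cell, which left out 46, 26, 2 and 0 cells, the shares were 19.9%, 17.2%, 2.04% and 0.775%. In late erythroid-like cells they were at most 0.0854%, but haemoglobin made up 620272, 617668, 563846 and 554120 CPM there. The part of free RNA in these shares was not tested.

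The early B-like class held 3 clusters in different proportions: cluster 5 with 426, 365, 110 and 28 cells, cluster 9 with 333, 263, 56 and 17, and cluster 17 with 9, 38, 229 and 84. H2-Q6 was lower with irradiation inside each of them. It stood at 109.5, 84.8, 15.4 and 4.9 CPM in cluster 5, at 172.5, 157.8, 22.4 and 10.6 CPM in cluster 9, and at 36.8, 3.7 and 1.7 CPM in cluster 17 of the last 3 libraries. H2-D1 was lower in each cluster too, from 1520 to 856 CPM in cluster 5 and from 1609 to 923 CPM in cluster 9 of controls. H2-K1 was less even: in cluster 5 of Vegfc-deleted mice it stood at 1335 CPM without and 1260 CPM with irradiation. B2m was under the fold used in each cluster of Vegfc-deleted mice. It went from 2084 to 1836 CPM in cluster 5, from 1733 to 1426 CPM in cluster 9 and from 1352 to 1091 CPM in cluster 17. In controls B2m went from 1880 to 1778 CPM in cluster 5 and from 1473 to 2008 CPM in cluster 9. Mki67, a proliferation marker, stood at 310, 545, 686 and 820 CPM in the class, haemoglobin (4 of 4 genes above 0) at 13027, 9326, 610 and 358 CPM, granule genes (9 to 11 of 11) at 171, 479, 84.2 and 1766 CPM, and T or NK markers (5 to 10 of 12, Cd3e at 0) at 21.5, 16.1, 6.66 and 18.4 CPM. Their part in the result was not tested.

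**Figure D5:**
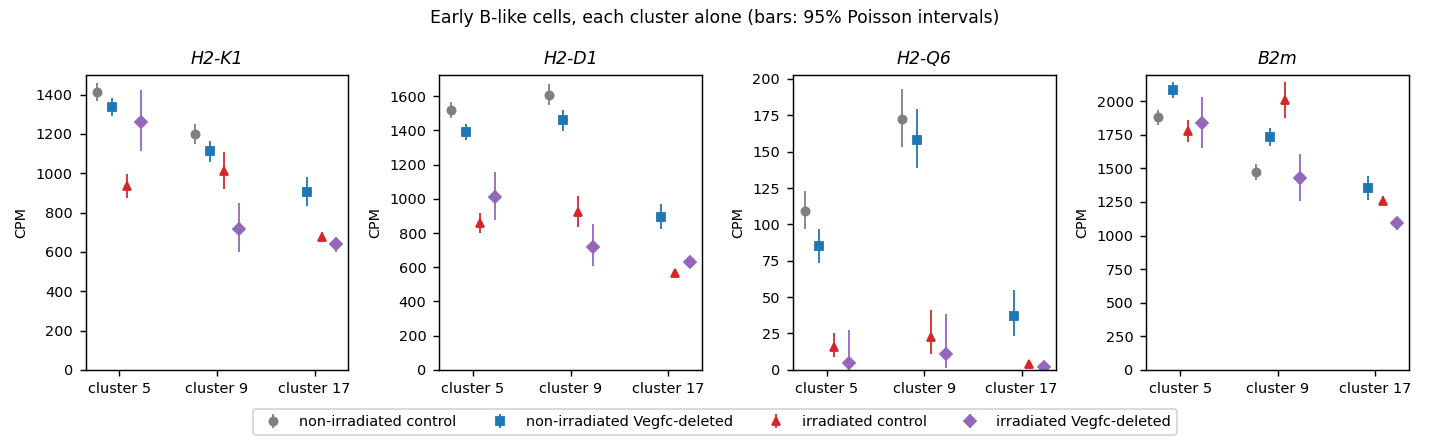
CPM (vertical) of H2-K1, H2-D1, H2-Q6 and B2m in each cluster of the early B-like class (horizontal), with a point per library and bars for 95% Poisson intervals. H2-Q6 stands at 109.5 and 84.8 CPM in the non-irradiated and 15.4 and 4.9 CPM in the irradiated libraries of cluster 5, and is lower in irradiated libraries in the other clusters as well.

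Other class I heavy chains moved with H2-Q6 in early B-like cells. Of 13 found in the files, all 8 that passed the count filter were called lower in controls and all 9 in Vegfc-deleted mice. Of all genes 22% and 26.4% were lower there. The median log2 ratios of these heavy chains were -1.41 and -1.43. H2-Q7, the neighbour of H2-Q6, stood at 241, 206, 23.6 and 19.8 CPM, and none of the 50-base stretches at its 3' end occurs in H2-Q6. H2-Q4, in which 61 of the 451 such stretches of H2-Q6 occur, stood at 124, 105, 33.8 and 31.1 CPM. H2-Q10, in which 2 of those of H2-Q7 occur, stood at 19.0, 11.1, 1.27 and 0.472 CPM. Cd1d1, which presents lipids, stood at 92.1, 80.5, 33.9 and 32.1 CPM. In LepR stromal-like cells 2 of 8 and 3 of 8 were lower, against 10.5% and 12.8% of all genes. Among them were H2-Q4 (121, 154, 71.6 and 72.1 CPM) and H2-Q10 (228, 208, 108 and 126 CPM). There 0 were higher, against 18% and 17.3% of all genes. In sinusoidal endothelial-like cells 1 of 7 was higher in controls, against 17.2% of all genes. In Vegfc-deleted mice 2 of 7 were lower there, against 7.67% of all genes.

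Some genes of peptide trimming and loading were higher in early B-like cells. There 4 of 7 were higher in controls (21.4% of all genes), with a median log2 ratio of 0.60, and 3 of 7 were higher and 1 lower in Vegfc-deleted mice (14.3% and 26.4% of all genes), with a median of 0.53. Calnexin (Canx), a chaperone of newly made heavy chains, stood at 163, 199, 434 and 458 CPM. The trimming peptidase Erap1 stood at 28.9, 33.2, 54.0 and 54.7 CPM and calreticulin (Calr) at 336, 327, 511 and 537 CPM. In LepR stromal-like cells Canx alone was higher (190, 219, 322 and 397 CPM), against 18% and 17.3% of all genes. In sinusoidal endothelial-like cells 0 of 7 were called, where 17.2% and 14.3% of all genes were higher and 7.87% and 7.67% lower. The constitutive catalytic subunits of the proteasome were not called in the irradiation contrasts of these 3 classes (0 of 3 each). Of the other 11 core subunits 1, Psma7, was higher in LepR stromal-like cells of Vegfc-deleted mice and in early B-like cells of controls, and 0 elsewhere. Psme2, a part of the inducible activator, was the only one of 3 other inducible proteasome genes that was called: it was higher in those same 2 comparisons.

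Most interferon-stimulated genes outside antigen presentation were called higher in both niche classes. In LepR stromal-like cells 22 of 23 were higher in controls and 19 of 22 in Vegfc-deleted mice, against 18% and 17.3% of all genes. There 0 were lower (10.5% and 12.8% of all genes), with median log2 ratios of 1.35 and 0.94. Ifit1 stood at 33.6, 57.0, 165 and 189 CPM, the chemokine Cxcl9 at 270, 353, 1872 and 1058 CPM, Ifit3 at 13.4, 32.6, 59.1 and 93.5 CPM and the GTPase Igtp at 23.2, 41.6, 95.3 and 99.5 CPM. In sinusoidal endothelial-like cells 15 of 23 were higher and 3 lower in controls, against 17.2% and 7.87% of all genes. In Vegfc-deleted mice 13 were higher and 2 lower, against 14.3% and 7.67%, and the medians were 0.90 and 0.62. Gbp4 stood at 21.3, 23.8, 101 and 105 CPM, Ifit3 at 9.70, 20.7, 31.6 and 43.2 CPM, Rtp4 at 36.2, 54.5, 77.3 and 105 CPM and Usp18 at 14.2, 16.0, 27.3 and 33.8 CPM, while Cxcl10 was lower, at 258, 188, 83.9 and 57.9 CPM. Early B-like cells had 5 of 21 higher and 2 lower in controls, against 21.4% and 22% of all genes. In Vegfc-deleted mice 2 of 18 were higher and 7 lower, against 14.3% and 26.4%, and the medians were 0.19 and -0.47.

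The regulators of class I transcription did not move as 1 group. Irf1, an activator of class I genes, was lower after irradiation in sinusoidal endothelial-like cells, at 494, 321, 158 and 109 CPM, and in LepR stromal-like cells, at 421, 418, 217 and 88.8 CPM. Relb, an NF-κB subunit, was lower in both too. Over the 12 regulators counted, sinusoidal endothelial-like cells had 0 higher and 3 lower in controls, against 17.2% and 7.87% of all genes. In Vegfc-deleted mice they had 1 higher (Rfx5) and 2 lower, against 14.3% and 7.67%, and the medians were -0.05 and 0.14. LepR stromal-like cells had 4 higher and 2 lower in controls, against 18% and 10.5% of all genes. In Vegfc-deleted mice they had 2 higher and 2 lower, against 17.3% and 12.8%, and the medians were 0.28 and -0.19. Irf7 stood there at 37.1, 52.2, 79.1 and 98.8 CPM and Stat2 at 35.9, 44.6, 88.6 and 83.5 CPM. Early B-like cells had 7 and 9 of 12 lower, against 22% and 26.4% of all genes, and 0 higher, against 21.4% and 14.3%. Their medians were -0.61 and -0.91. Relb stood there at 33.7, 22.5, 8.88 and 5.66 CPM, Irf2 at 224, 199, 113 and 97.2 CPM and Irf1 at 89.8, 85.4, 46.6 and 29.2 CPM.

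Among interferon ligands and receptors, 6 and 5 of 8 tested were lower in early B-like cells, against 22% and 26.4% of all genes. There 0 were higher, against 21.4% and 14.3% of all genes, and the medians were -0.74 and -0.67. The type I receptor chain Ifnar1 stood at 79.7, 74.3, 34.9 and 34.4 CPM there. In LepR stromal-like cells 1 was higher in both genotypes, Ifngr1 (269, 273, 467 and 449 CPM), against 18% and 17.3% of all genes. There 1 and 2 were lower, against 10.5% and 12.8% of all genes (medians -0.05 and -0.28). In sinusoidal endothelial-like cells 0 and 2 were higher, against 17.2% and 14.3% of all genes. There 1 was lower, against 7.87% and 7.67% (medians -0.10 and 0.07). Socs1, a feedback inhibitor of interferon signalling, was lower in all 3 classes. Ifng itself was found in T or NK-like cells at 143, 213 and 161 CPM, from 36, 94 and 400 UMIs, and had 0 UMIs in sinusoidal endothelial-like and LepR stromal-like cells of all 4 libraries.

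MHC class II genes gave the opposite directions in endothelium and early B-like cells. In early B-like cells 5 of 5 tested were lower in both genotypes (22% and 26.4% of all genes), with medians of -3.56 and -1.43. Cd74 stood there at 123, 76.4, 7.92 and 43.4 CPM. In sinusoidal endothelial-like cells 7 of 7 and 4 of 5 were higher (17.2% and 14.3% of all genes), with medians of 2.49 and 1.58. Cd74 stood there at 7.44, 11.3, 52.6 and 43.7 CPM. In LepR stromal-like cells 3 of 5 and 2 of 3 were higher (18% and 17.3% of all genes), with medians of 2.11 and 1.54. Class II is also carried by B cells, dendritic cells and macrophages, and the monocyte markers (5 or 6 of 6 above 0) in sinusoidal endothelial-like cells stood at 3.56, 9.12, 17.1 and 47.8 CPM. Their part in these ratios was not tested.

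Among the remaining classes, myeloid precursor-like cells could be compared in Vegfc-deleted mice alone, where 5 of 8 members were lower with irradiation and 0 higher, against 12.3% and 10.3% of all genes. H2-K1 was at 567 and 351 CPM, B2m at 970 and 580 CPM and H2-Q6 at 16.4 and 1.53 CPM, 10.7-fold lower (4.65 to 30.4). T or NK-like cells of the same mice had 2 of 9 higher, where 30.5% of all genes were. Tap1 stood there at 55.7 and 157 CPM, 2.82-fold higher (1.66 to 5.20), from 14 UMIs in 36 cells before irradiation. In early erythroid-like cells 3 of 8 were higher in controls (21.8% of all genes), led by Psmb8 at 3.41-fold (2.59 to 4.5), and 1 of 9 higher and 4 lower in Vegfc-deleted mice (12.8% and 11.9%). The class held 63, 157, 22 and 83 cells. Leukocyte markers (5 or 6 of 6 genes above 0) stood at 91.9, 86.3, 249 and 143 CPM in it. T or NK markers (2 to 9 of 12) stood at 0.668, 1.20, 27.9 and 11.7 CPM and granule genes (7 to 11 of 11) at 40.7, 110, 43.9 and 473 CPM. Their part in these ratios was not tested. Without the cells of shared barcodes the counts of called members were the same. After thinning 2 and 3 members passed the count filter, of which 0 were higher in either genotype and 1 and 2 lower. In late erythroid-like cells H2-D1 was lower in both genotypes, 1.71-fold (1.54 to 1.90) and 1.97-fold (1.70 to 2.29), as 1 of 5 and 2 of 6 members, where 9.22% and 13.3% of all genes were lower (3 and 5 members under TMM scaling). None was higher there, where 33.9% and 28.6% of all genes were.

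Myeloid classes held few cells in some libraries, and their calls were scattered over the members. Monocyte or macrophage-like cells numbered 25, 127, 77 and 457. In controls B2m stood at 1692 and 2619 CPM, 1.55-fold higher with irradiation (1.44 to 1.67), and Psmb8 at 438 and 270 CPM, 1.62-fold lower (1.37 to 1.91), so 1 of 8 was higher and 1 lower, against 21.6% and 14.4% of all genes. In Vegfc-deleted mice Nlrc5 stood at 8.07 and 26.6 CPM, 3.30-fold higher (2.04 to 5.67), the 1 call among 9, against 20.5% of all genes (11.3% lower). Immature neutrophil-like cells of controls, 27 and 40 in number, had 4 of 7 higher and 0 lower, against 29.2% and 3.44%, with H2-K1 at 112 and 240 CPM, a direction that thinning turned. In Vegfc-deleted mice, with 144 and 463 cells, 0 of 7 were called, where 13.6% of all genes were higher and 6.17% lower. Mature neutrophil-like cells had 1 of 7 higher in each genotype, Tap1 in controls at 27.1 and 58.4 CPM (2.15-fold, 1.24 to 3.93) and Psmb9 in Vegfc-deleted mice at 69.3 and 112 CPM (1.62-fold, 1.34 to 1.96), against 23% and 20.1% of all genes, and 0 lower, against 14.4% and 12.6%. These were comparisons between clusters, since cluster 16 held 76, 283, 1 and 2 cells of the class and cluster 6 held 0, 3, 81 and 654.

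In megakaryocyte-like cells H2-K1, H2-D1 and B2m were higher and Psmb8 lower after irradiation in both genotypes. H2-Q6 was higher in controls alone, with log2 ratios of 1.58 there and -0.18 in Vegfc-deleted mice. In controls 5 of 8 members were higher and 2 lower, but 41.3% of all genes were higher and 30.8% lower. In Vegfc-deleted mice 3 of 6 were higher and 1 lower, against 16.9% and 35%. H2-K1 stood at 313, 299, 490 and 642 CPM, 1.57-fold higher in controls (1.37 to 1.79) and 2.15-fold in Vegfc-deleted mice (1.79 to 2.57). Psmb8 stood at 72.0, 51.7, 15.4 and 17.9 CPM, 4.67-fold lower in controls (2.90 to 7.76) and 2.88-fold lower in Vegfc-deleted mice (1.24 to 8.22). The control values rest in part on 4 non-irradiated cells with a shared barcode, 1 of them with 179675 UMIs. Without such cells the log2 ratio of Psmb8 in controls was -1.34, that of H2-K1 1.03 and that of Tap1 2.24 in place of 0.36, and Psmb9 had 0.73 in place of -0.64. As a mean over cells, Psmb8 did not differ by the fold used (log2 ratio 0.037), and after thinning its direction turned. Mki67 in this class stood at 582, 109, 13.5 and 2.99 CPM, and its part was not tested.

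Without irradiation the Vegfc-deleted library had few members past 1.5-fold in the niche classes. In sinusoidal endothelial-like cells H2-Q6 was 1.52-fold (1.27 to 1.83) and Psmb9 1.53-fold higher (1.27 to 1.86), 2 of 9 members against 4.24% of all genes (3.94% lower). In LepR stromal-like cells H2-Q6 was 1.51-fold higher (1.37 to 1.67), 1 of 9 against 2.28% (4.42% lower). Their medians over the 9 members were 0.24 and 0.23, those over all genes 0.01 and 0.00. Early erythroid-like cells had 0 of 9 members called (6.35% of all genes higher, 1.74% lower). Early B-like cells likewise had 0 of 9 (5.99% of all genes higher, 4.05% lower). Erythroid-like cells held more B2m and Tap1 in the Vegfc-deleted library. B2m was 1.58-fold higher in both mid (1.54 to 1.62) and late (1.5 to 1.66) erythroid-like cells, and Tap1 2.44-fold (1.99 to 3.02) and 2.24-fold (1.48 to 3.46). With Psmb9 they made 3 of 7 members called higher in mid erythroid-like cells, where 22.7% of all genes were higher and 1.8% lower. With Psmb8, whose direction thinning turned (log2 ratio -0.24), they made 3 of 6 in late erythroid-like cells, where 7.46% were higher and 3.43% lower. The members' median log2 ratios were 0.51 in mid and 0.32 in late erythroid-like cells, and those of all genes 0.30 and 0.13. Haemoglobin (4 of 4 genes above 0) stood at 218097 and 147248 CPM in mid and 620272 and 617668 CPM in late erythroid-like cells, and granule genes (10 and 11 of 11) at 55.9 and 184 CPM and at 237 and 445 CPM. Their part in these ratios was not tested.

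With irradiation the genotypes differed by the fold used in 0 of 9 members in sinusoidal endothelial-like cells, where 2.93% of all genes were higher and 5.99% lower, and in 1 of 9 in LepR stromal-like cells, Psmb8 at 1.53-fold (1.34 to 1.74), against 8.24%. Osteolineage-like cells, which make bone matrix, had 3 of 9 higher in the Vegfc-deleted library and 0 lower, against 8.71% and 9.3% of all genes. There Tap1 stood at 12.1 and 26.7 CPM (2.20-fold, 1.55 to 3.15), Psmb8 at 23 and 48.9 CPM (2.13-fold, 1.65 to 2.75) and Psmb9 at 18.8 and 35.7 CPM (1.90-fold, 1.42 to 2.55). After thinning Tap1 turned, to a log2 ratio of -0.51. Markers of other cells were higher in the same library: leukocyte markers (6 of 6 genes above 0) stood at 70.4 and 711 CPM, granule genes (11 of 11) at 4839 and 34297 CPM, T or NK markers (2 and 11 of 12) at 0.627 and 43.0 CPM, monocyte markers (6 of 6) at 10.9 and 132 CPM and class II genes (6 and 7 of 7) at 14.0 and 284 CPM. A leukocyte UMI was found in 13 of 128 and 33 of 78 of these cells. Without the cells holding a leukocyte UMI 0 of the members were called: Tap1 had a log2 ratio of 0.45, Psmb8 of 0.25 and Psmb9 of 0.16. In early erythroid-like cells 4 of 7 members were lower in the Vegfc-deleted library and 0 higher (10.3% and 5.43% of all genes), with Tap1 2.55-fold (1.86 to 3.48) and Psmb8 2.08-fold lower (1.65 to 2.61). After thinning 1 member passed the count filter and 0 were called. Leukocyte markers stood at 249 and 143 CPM in these cells and T or NK markers at 27.9 and 11.7 CPM. Their part in these ratios was not tested. Early B-like cells had H2-Q6 alone lower (9.12% of all genes, with 2.92% higher), 2.41-fold (1.02 to 6.92), from 43 and 6 UMIs. In late erythroid-like cells 0 of 4 were called (7.36% of all genes higher, 8.62% lower). Non-sinusoidal endothelial-like cells had 1 of 8 higher, Psmb8 at 152 and 228 CPM (1.5-fold, 1.17 to 1.92), against 7.99% of all genes, and 0 lower, against 14.2%. Granule genes (8 and 11 of 11 above 0) stood at 113 and 22378 CPM in the same cells, leukocyte markers (6 of 6) at 158 and 558 CPM and monocyte markers (5 and 6 of 6) at 18.4 and 79.4 CPM, and 12 of 119 and 10 of 34 cells had a leukocyte UMI. Without those cells the log2 ratio of Psmb8 was 0.51, under the fold used.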

How the data were processed

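Gene expression was measured in 4 single-cell libraries (10x Chromium 3' v3.1). The authors deposited raw UMI counts per gene and barcode. Cell Ranger 2.1.1 and mm10 are named, per the submitters' processing notes, whereas the matrix header gives 3.1.0. Barcodes under 500 genes or over 10% mitochondrial UMIs were left out (2071, 2200, 1175 and 895), then Scrublet's highest scorers at 0.8% per 1000 barcodes (444, 479, 212 and 211). All libraries were clustered together in scanpy 1.11.5 with leidenalg 0.10.2 (2000 variable genes, 40 components, 20 neighbours, resolution 1, seed 7), with 103 listed presentation and interferon genes barred from the variable genes. The 34 clusters were named from 24 marker lists (score at least 2.5, at least 3 markers and 1 among the 10 leading genes, with a margin over lists of other lineages and a median depth of at least a fixed part of the library's). Erythroid clusters whose early and late scores lay within 1 of each other were called mid erythroid-like, and endothelial clusters whose sinusoidal and arterial or capillary scores did so non-sinusoidal endothelial-like. The 10 clusters left unnamed held 6.66%, 7.94%, 9.38% and 13.1% of kept cells.

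Counts of classes with at least 20 cells were summed. CPM carry exact Poisson, ratios exact conditional and shares exact binomial intervals, at 95%, for counting error only. Log2 ratios used a prior of 0.5 counts. The summing and calling steps were tested on simulated data. With 1 library per group there was no test. The members and gene lists were chosen with earlier results of these data known. Named from the lists were genes past 1.5-fold in the same direction in both genotypes, at most 4 per list, class and direction, and the 10 non-member genes of at least 10 CPM most correlated with the members' mean. A gene of the list of regulators is not reported here and is left out of that list's counts. Alternatives covered thinning, doublets, clustering, scaling, mitochondrial limit, prior and count filter.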

Additional observations from a re-analysis of the deposited data

Results flagged for a closer look

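In early erythroid-like cells the effect of irradiation on Tap1, the transporter subunit, had opposite directions in the genotypes. Tap1 stood at 29.2 CPM in the non-irradiated and 43.9 CPM in the irradiated control library, a log2 ratio of 0.60, and at 36.6 and 17.3 CPM in the Vegfc-deleted libraries, a log2 ratio of -1.08. It was picked out because both ratios passed 1.5-fold in opposite directions. The difference was not tested, since each group is 1 library and the irradiated control had 22 cells of this class. Over the 10 alternatives the control value lay between 0.21 and 1.01 and the Vegfc-deleted value between -1.71 and -0.58. Of the UMIs of this class in the non-irradiated control, 41.9% came from cells whose barcode also occurred in another library. Without such cells the values were 0.69 and -1.06. With irradiation leukocyte markers went from 91.9 to 249 CPM in controls and from 86.3 to 143 CPM in Vegfc-deleted mice. T or NK markers went from 0.668 to 27.9 CPM and from 1.20 to 11.7 CPM. Their part was not tested.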

How the results depend on the processing

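No paired analysis was possible because each group is 1 library and the labels give no replicate numbers, and no replicate could be left out for the same reason. Of 4520 member ratios recomputed, 3934 stayed inside the main counting interval, 569 moved out of it in the same direction or without having been called, and 17 called ratios reversed. The alternatives differed widely. After thinning 193 of 407 stayed inside, 206 moved and 8 reversed, and in cluster 5 or cluster 9 alone 13 of 36 stayed inside. With a prior of 5 counts all 423 stayed inside. Single clusters and the removal of shared barcodes were chosen after seeing the data. In early B-like cells H2-Q6 had log2 ratios from -4.62 to -3.44 in controls and from -5.08 to -4.13 in Vegfc-deleted mice over 10 alternatives, and inside single clusters from -4.21 to -2.79. H2-K1 there had -0.08 in cluster 5 of Vegfc-deleted mice and -0.24 in cluster 9 of controls. TMM scaling moved the median of all genes from 0.16 to -0.03 and from 0.11 to -0.07 in LepR stromal-like controls and Vegfc-deleted mice.

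Counts of members called higher with irradiation changed as follows. The shares of all genes called under each alternative are not given beside them. LepR stromal-like cells of Vegfc-deleted mice had 2, but 0 under TMM scaling and 1 both after thinning and in cluster 2 alone, and those of controls had 2, but 6 in cluster 2 alone. Sinusoidal endothelial-like cells of Vegfc-deleted mice had 1, but 2 after thinning or without doublet removal, and those of controls 3, but 5 in cluster 10 alone. Early B-like cells of controls had 1, but 2 after thinning or in cluster 9 alone and 3 in cluster 5 alone, and those of Vegfc-deleted mice 0, but 1 as a mean over cells and in cluster 5 or 17 alone. Of genotype counts, non-irradiated sinusoidal cells had 2, but 1 without doublet removal, without cells holding leukocyte UMIs or in cluster 10 alone, and 0 in cluster 0 alone. Non-irradiated LepR stromal-like cells had 1, but 0 at 5% mitochondrial UMIs or in cluster 11 alone. Irradiated LepR stromal-like cells had 1, but 0 after thinning or in cluster 2 alone and 2 without cells holding leukocyte UMIs. The cause was not tested.

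Among the smaller classes thinning changed most counts: 2 of 4 members in place of 5 of 8 were lower in myeloid precursor-like cells of Vegfc-deleted mice, 0 of 1 in place of 4 of 7 higher in immature neutrophil-like controls, and 2 of 4 in place of 5 of 8 higher in megakaryocyte-like controls, since fewer passed the count filter.

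Reversed log2 ratios after thinning were those of H2-K1 in immature neutrophil-like cells (-0.16 for genotype without irradiation, -0.065 for irradiation in controls) and, for genotype, Tap1 (-0.073) in the same cells, Psmb8 in late erythroid-like cells (-0.24) and Tap1 in irradiated osteolineage-like cells (-0.51). For irradiation in controls Tap1 in basophil or mast-like cells became -1.77, and in megakaryocyte-like cells Psmb8 and Psmb9 became 0.34 each, as means over cells 0.037 and 1.20, and Psmb9 0.73 without shared barcodes. In cluster 2 alone H2-Q6 became 0.72 (irradiation, LepR stromal-like controls) and Psmb8 -0.062 (genotype, irradiated). In cluster 0 alone, for irradiation in sinusoidal controls, Nlrc5 became -0.35 and Psmb9 -0.30, and Psmb9 -0.26 for genotype without irradiation. At resolution 2 Psmb9 in irradiated mature neutrophil-like cells became -0.028 for genotype. For all of these the cause was not tested. Depth limits the classes of few cells, such as the 22 early erythroid-like cells of the irradiated control.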
